A study of Mus musculus with 12 samples.

Results

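Collagen genes were described in whole mouse embryos that carry wild-type or mutant alleles of Tgif1 and Tgif2. The members were all rows of the count table whose symbol is Col, a number, a and a second number, which gave 43 of 23284 genes. Each library came from a single embryo at 9.0 dpc (about 9 to 10 somites), and the strain of both groups was a C57BL/6 x 129Sv mix. There were 4 wild-type (WT) embryos and 8 with the genotype Tgif1;Tgif2 null, titled CDKO and described in the series text as conditional double mutants. The sources used here do not name the driver of the deletion.

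Library totals ran from 16802367 to 21346245 counts. Tgif1 stood at 60.9 ± 2.52 CPM (counts per 1000000 of the scaled library; SD, n = 4) in WT and 6.2 ± 0.528 CPM (SD, n = 8) in CDKO embryos. Tgif2 was not lower (87.3 ± 1.17 against 97.9 ± 11.8 CPM, edgeR quasi-likelihood test, adjusted p = 0.0958), so its counts do not check the label for that gene. A partial deletion can leave counts in place, and whether that holds here was not tested. The embryos are called CDKO as labelled. CDKO embryo 6 stood apart in trophoblast and decidua markers. The decidual prolactin gene Prl8a2 was at 35.9 CPM there, against 0.41 CPM or less in the other 11 libraries. Counts are given below without that library, and without WT embryo 1 and CDKO embryo 2, which earlier results of these data had set apart.

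Collagens are secreted or membrane proteins whose chains wind into helical trimers with glycine at regular intervals. Fibrillar collagens (types I, II, III, V, XI, XXIV and XXVII) build the rope-like fibrils of mesenchyme, skin, bone and cartilage. Type IV forms the sheet of basement membranes, type VI a beaded microfibril around cells, and fibril-associated types (IX, XII, XIV, XVI and relatives) coat fibrils. At this stage the embryo has somites, a looping heart and a closing neural tube, and cartilage and bone have not formed.

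In the CDKO embryos Col1a1, Col1a2, Col3a1, Col5a1, Col5a2, Col6a1, Col6a2, Col6a3, Col9a1 and Col9a2, chains of types I, III, V, VI and IX, were higher. In each of these genes every CDKO embryo lay above every WT embryo. The fold changes of the type IV and type XVIII chains were small. Of the 43 collagen genes, 34 passed the filter on low counts. Expression of 15 rose, that of 3 fell, and 16 genes missed the threshold (edgeR quasi-likelihood test, Benjamini-Hochberg adjusted p under 0.05 over all 14412 genes tested). Over all genes tested 51.5% were called, 26.6% higher and 24.9% lower, so the share of collagen genes called in either direction, 52.9%, was near that of all genes. The share that rose was 44.1%. The median log2 fold change was 0.24 over the 34 collagen genes and 0.01 over all genes tested. A rise of at least 2-fold was called in 8 of the 34 collagen genes, against 726 (5.04%) of the 14412 genes tested. A fall of that size was called in none of the 34, and in only 201 of the 14412. With CDKO embryo 6 left out 17 rose and 3 fell, and with WT embryo 1 and CDKO embryo 2 both left out 13 rose and 2 fell. Whole embryos were sequenced, so more collagen-making cells and more RNA per cell cannot be told apart.

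**Figure D1:**
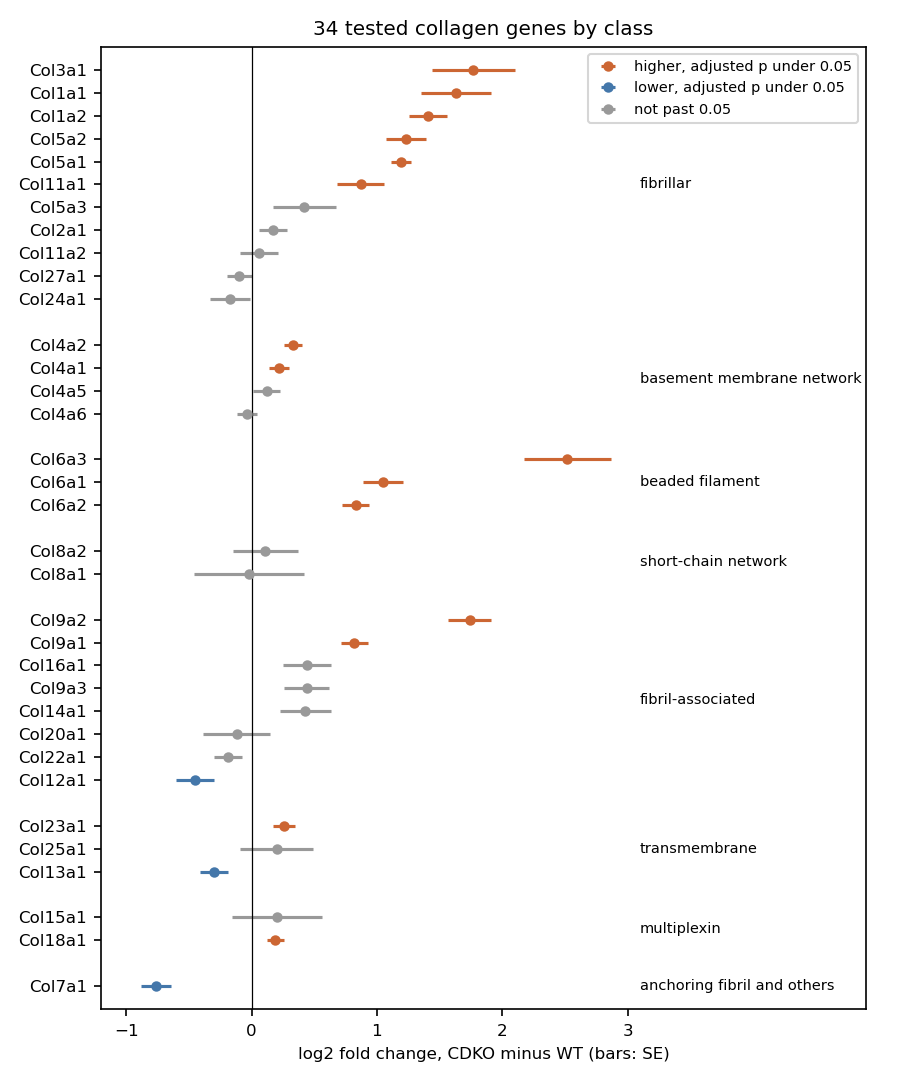
Log2 fold change (CDKO minus WT, horizontal axis) of each of the 34 collagen genes tested, grouped by class, with the SE as bars; orange genes were called higher, blue lower, and grey did not pass an adjusted p of 0.05. All values of 1.05 or more belong to chains of types I, III, V, VI and IX, with Col6a3 highest at 2.52. Col11a1 comes next at 0.87, and the type IV chains lie between -0.04 and 0.33.

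Col1a1 and Col1a2 encode the chains of type I collagen, the main fibril protein of mesenchyme, skin and bone. Col1a1 was measured at 127, 149.5, 173 and 167 CPM in the 4 WT embryos and at 606, 343, 517, 276, 364, 406, 817 and 487 CPM in CDKO embryos 1 to 8. The groups did not overlap, and CDKO embryo 7 was highest. Its mean was 154 ± 20.9 CPM in WT and 477 ± 173 CPM in CDKO (log2 fold change 1.63, SE 0.28, adjusted p = 0.000546). Col1a2 stood at 140.4, 169.5, 179 and 178 CPM in WT and at 548, 401, 454, 357.5, 381, 391, 624 and 399 CPM in CDKO embryos. Again every CDKO embryo lay above every WT embryo, and the log2 fold change was 1.41 with an SE of 0.15 (adjusted p = 8.24e-06).

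Col3a1, whose homotrimer is found with type I in soft tissue and vessel walls, stood at 92.4, 149.9, 146 and 135 CPM in WT and at 460.3, 384, 404, 336, 324, 229.8, 849 and 583 CPM in CDKO embryos. CDKO embryo 6 was the lowest of its group and still above all WT embryos, and CDKO embryo 7 was the highest. The log2 fold change was 1.77 (SE 0.33, adjusted p = 0.00115). Col5a1 and Col5a2 encode type V chains, which sit inside type I fibrils and start their assembly. Col5a1 was the most even of these genes, at 116, 120.5, 131 and 127 CPM in WT and at 340.3, 295, 285, 255, 259.6, 274, 304 and 245 CPM in CDKO embryos (log2 fold change 1.19, SE 0.08, adjusted p = 2.25e-08). Col5a2 stood at 62.6, 76.6, 93.7 and 84.2 CPM in WT and at 249, 181, 182, 149.7, 169, 142, 222 and 196 CPM in CDKO embryos (1.23, SE 0.16, adjusted p = 3.18e-05). Neither gene had overlapping groups. Over all genes tested, all CDKO embryos lay above all WT embryos in 17.5% and below in 17.1%. Among the collagen genes tested this held for 10 above and 1 below.

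**Figure D2:**
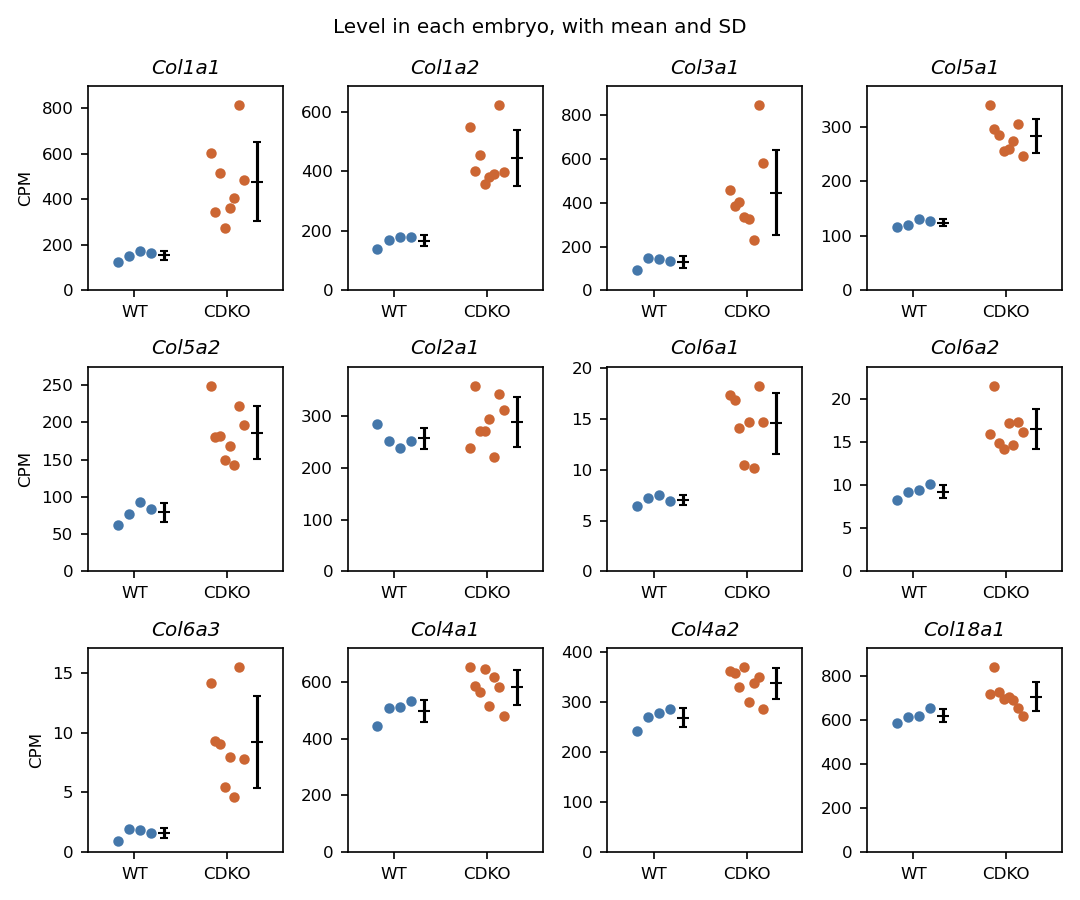
CPM (vertical axes, from 0, a scale per gene) of 12 collagen genes in each WT (blue) and CDKO (orange) embryo, with the group mean and SD beside the points. The groups are apart for the type I, III, V and VI chains and overlap for Col2a1, Col4a1, Col4a2 and Col18a1.

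The other fibrillar genes were mixed. Of the 11 tested, 6 rose and none fell (median log2 fold change 0.87). Col11a1 encodes a type XI chain, which plays the same nucleating part in type II fibrils of cartilage. It ranged from 24.1 to 29 CPM in WT and from 28.1 to 71 CPM in CDKO embryos (0.87, SE 0.19, adjusted p = 0.00233). Only CDKO embryo 6 lay within the WT range. Col2a1, the type II fibril chain, which notochord and later cartilage make, stood at 238 to 285 CPM in WT and 221 to 359 CPM in CDKO embryos and did not pass the test (0.17, SE 0.11, adjusted p = 0.23). Col11a2, Col5a3, Col24a1 and Col27a1 did not pass either, with log2 fold changes from -0.17 to 0.42. Sums of notochord and sclerotome markers, from tissues that make type II collagen, were 149 to 171 and 47.3 to 79.9 CPM in WT and 104 to 139.8 and 42.5 to 60.3 CPM in CDKO embryos. In WT, Sox9 (53.5 ± 3.72 CPM) and T (51.5 ± 8.5 CPM) gave most of the notochord sum, and Foxc2 (49.3 ± 10.6 CPM) most of the sclerotome sum. None of the 8 notochord genes tested rose and 2 fell, T (-0.99, SE 0.37) and Shh (-0.64, SE 0.12). The other 6, Sox9, Foxa2, Nog, Chrd, Foxj1 and Noto, did not pass, with log2 fold changes from -0.52 to 0.03. All of these 6 but Sox9 were named after their values were seen. Of 5 sclerotome genes tested none rose and 2 fell, Foxc2 (-0.37, SE 0.11) and Uncx (-1.29, SE 0.37). Pax1 (0.02, SE 0.29), Pax9 (0.28, SE 0.13) and Nkx3-2 (0.98, SE 0.51) did not pass. Uncx and Nkx3-2 were named after their values were seen. These shares are of small lists and stand beside 24.9% lower over all genes tested. Their part in the type II and XI values was not tested.

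All 3 type VI chain genes that passed the filter rose, and none of their groups overlapped. Col6a1 and Col6a2 both lie on chromosome 10, and each trimer also takes up a longer chain, encoded by Col6a3 in most tissues. Col6a3 was the collagen gene with the largest fold change. It stood at 0.985, 1.92, 1.9 and 1.6 CPM in WT and at 14.1, 9.33, 9.08, 5.43, 7.95, 4.65, 15.5 and 7.8 CPM in CDKO embryos (log2 fold change 2.52, SE 0.35, adjusted p = 5.5e-05). These levels rest on 120 counts over the WT libraries and 1394 over the CDKO libraries. Col6a1 ranged from 6.43 to 7.54 CPM in WT and from 10.2 to 18.3 CPM in CDKO embryos (1.05, SE 0.16), and Col6a2 from 8.23 to 10.1 and from 14.2 to 21.5 CPM (0.83, SE 0.11). Col6a4, Col6a5 and Col6a6, the alternative long chains, had 9 to 11 counts each over the WT libraries and did not pass the filter. Col6a5 and Col6a6 share a stretch of 572 bases at 96.9% identity, so reads could be split between them.

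The fibril-associated class had 8 genes past the filter, of which Col9a1 and Col9a2 rose, Col12a1 fell and 5 missed the threshold. Type IX collagen decorates type II fibrils and is built from chains of Col9a1, Col9a2 and Col9a3. Col9a2 stood at 3.3, 3.6, 3.97 and 4.09 CPM in WT and at 9.04, 14.7, 12.3, 10.3, 11.9, 10.8, 18.2 and 13.4 CPM in CDKO embryos (log2 fold change 1.74, SE 0.17, adjusted p = 1.16e-06). Col9a1 rose by less, from 22.9 to 28.7 CPM in WT to 36.3 to 57 CPM in CDKO embryos (median 45.8; 0.82, SE 0.11, adjusted p = 2.18e-05). Both had groups that did not overlap. Col9a3 did not pass (0.44, SE 0.18, adjusted p = 0.0574), with 7 of 8 CDKO embryos above the WT mean. It passed without CDKO embryo 1 (adjusted p = 0.0239) or CDKO embryo 5 (0.0494) and in limma-voom with sample quality weights (0.0167), and 6.07% of its annotated exon bases overlap Tcfl5 on the opposite strand, so its reads are less certain.

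Col12a1 encodes a fibril-associated chain of tendon and skin. It ranged from 13.7 to 18.5 CPM in WT and from 7.29 to 16.2 CPM in CDKO embryos, with a fall of 0.45 on the log2 scale (log2 fold change -0.45, SE 0.15, adjusted p = 0.0228). The call was lost without WT embryo 1 (adjusted p = 0.0827) or WT embryo 3 (0.0596). Col14a1 and Col16a1 missed the threshold with log2 fold changes of 0.43 (SE 0.20) and 0.44 (SE 0.19). Each was above the WT mean in 7 of 8 CDKO embryos, and each passed without CDKO embryo 6 (adjusted p = 0.0343 and 0.019); Col16a1 also passed without CDKO embryo 4 (0.0482). Col20a1 and Col22a1 had values of -0.12 (SE 0.27) and -0.19 (SE 0.11).

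Basement membrane collagens were among the most abundant in both groups and differed by small amounts. Col4a1 and Col4a2 encode the chains of the common type IV network. Their RefSeq transcription starts lie 21 bases apart on opposite strands of chromosome 8. Col4a1 stood at 442, 506.5, 511 and 533 CPM in WT and at 653, 585, 563, 643, 514.5, 617, 581 and 478.5 CPM in CDKO embryos, with 6 of the 8 above the highest WT embryo (log2 fold change 0.22, SE 0.08, adjusted p = 0.0294). Col4a2 stood at 241, 269, 277 and 287 CPM in WT and at 362.5, 358, 329.5, 370.5, 301, 338, 351 and 286 CPM in CDKO embryos, with 7 of 8 above (0.33, SE 0.07, adjusted p = 0.00123). With trends on GC content and length removed Col4a1 was at 0.08 (adjusted p = 0.389) and Col4a2 at 0.17 (adjusted p = 0.0423). The Col4a1 call was also lost without WT embryo 1 (adjusted p = 0.124), 2 (0.058) or 3 (0.0522).

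Col4a5 and Col4a6, a second head-to-head pair on the X chromosome with starts 1343 bases apart, did not pass (0.12, SE 0.11, and -0.04, SE 0.08). Col4a3 and Col4a4, chains of the mature kidney filter, did not pass the filter on low counts. Reichert's membrane, made by parietal endoderm, is a rich source of type IV collagen outside the embryo. Of 9 parietal endoderm markers 8 were tested, 7 rose (87.5%, against 26.6% of all genes tested) and none fell, and none of the 9 was at 0 in every library. Their summed level was 762 to 904 CPM in WT and 1050.3 to 1395 CPM in CDKO embryos. Sparc, Lamb1 and Lama1, which embryonic tissues also make, gave most of that sum. They are among the markers that rose and are counted again in the partner lists below. Thbd, a surface anticoagulant receptor named after its values were seen, rose from 4.82 ± 0.705 to 8.35 ± 1.92 CPM. Cited1, a transcriptional coregulator also named after its values were seen, was the tested marker that did not pass, at 65.1 ± 18.9 CPM in WT and 43.2 ± 17.1 CPM in CDKO embryos (-0.60, SE 0.30). The part of parietal endoderm in the type IV values was not tested.

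Col18a1, a multiplexin whose C-terminal end can be released as endostatin, was the most abundant collagen gene, at 585, 615, 619 and 655 CPM in WT and at 717, 841, 726, 693.5, 702, 691, 653 and 615 CPM in CDKO embryos. The ranges overlapped and the log2 fold change was 0.19 (SE 0.07, adjusted p = 0.0247). The call was lost with trends on GC content and length removed (0.02, adjusted p = 0.806) and without WT embryo 1 (adjusted p = 0.0863), 2 (0.0601) or 3 (0.0566). Its relative Col15a1, also of basement membranes, ranged from 4.61 to 5.77 CPM in WT. In CDKO embryos it stood at 10.1 CPM in embryo 7, 12 CPM in embryo 8 and 2.65 to 5.15 CPM in the others, and did not pass (0.20, SE 0.36).

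Col7a1 was the collagen gene with the largest fall. Type VII collagen forms the anchoring fibrils that tie epidermis to dermis. Col7a1 stood at 7.76, 7.04, 7.14 and 6.68 CPM in WT and at 4.31, 5.52, 3.76, 4.54, 4.46, 3.88, 4.02 and 3.29 CPM in CDKO embryos. All CDKO embryos lay below all WT embryos (log2 fold change -0.76, SE 0.12, adjusted p = 0.000135). Surface ectoderm markers, from the layer that makes type VII collagen, were mixed: of 9 tested 3 rose (33.3%, against 26.6% of all genes tested) and 1 fell, with a summed level of 621.5 to 709 CPM in WT and 639.5 to 1178 CPM in CDKO embryos. The keratin genes Krt8, Krt18 and Krt19 rose. Krt8 (228 ± 24.7 CPM in WT) and Krt18 (214 ± 18.3 CPM) gave most of that sum, and both were highest in CDKO embryo 6. The epithelial adhesion gene Epcam fell by 0.27 on the log2 scale. The epidermal regulator gene Trp63 (-0.27, SE 0.19), Grhl2 (-0.10, SE 0.10), Grhl3 (-0.36, SE 0.16), Tfap2c (0.11, SE 0.15) and Esrp1 (0.08, SE 0.07) did not pass. All of these but the keratin genes were named after their values were seen. The part of the surface ectoderm markers in the Col7a1 value was not tested.

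The transmembrane collagens differed by small amounts. Col13a1, found at cell-matrix junctions, ranged from 11.4 to 15 CPM in WT and from 9 to 13.3 CPM in CDKO embryos (-0.30, SE 0.11, adjusted p = 0.0307). That call was lost without WT embryo 2 (adjusted p = 0.0555), 3 (0.0933) or 4 (0.108) or CDKO embryo 4 (0.0527). Col23a1 rose from 38.3 to 42.3 CPM in WT to 39.6 to 58 CPM in CDKO embryos (median 48.1; 0.26, SE 0.09, adjusted p = 0.0245), a call lost with trends on GC content and length removed (0.14, adjusted p = 0.227) and without WT embryo 2 (0.0661), 3 (0.051) or 4 (0.072). Col25a1 did not pass (0.20, SE 0.29), and neither did the short-chain network genes Col8a1 and Col8a2 of vessel and corneal matrix (-0.02, SE 0.44, and 0.11, SE 0.26).

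The 9 genes under the filter had at most 31 counts over the 4 WT libraries and 38 over the 8 CDKO libraries, both in Col17a1, the hemidesmosome collagen. The others were Col4a3, Col4a4, Col6a4, Col6a5, Col6a6, Col10a1, Col19a1 and Col28a1. Col10a1, the marker of hypertrophic cartilage, had 2 and 5 counts. These genes were not tested.

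Summed over the 43 genes, collagen reached 2410.3, 2631, 2696 and 2745 CPM in WT embryos and 4615.5, 4144, 4131, 3730.1, 3693, 3616.5, 5223.5 and 4028 CPM in CDKO embryos. Every CDKO embryo lay above every WT embryo, and the ratio of the means, 2620.4 ± 148 CPM (SD, n = 4) and 4148 ± 542 CPM (SD, n = 8), was 1.58. The fibrillar class went from 969 ± 61.3 to 2203 ± 513 CPM, a ratio of 2.27. Type VI genes had a similar ratio, 2.23, at far lower levels (18.3 ± 1.49 and 40.7 ± 8.01 CPM). Type IV genes had a ratio of 1.18 and the multiplexins 1.14. Fibrillar genes thus held 36.4% to 37.8% of the collagen CPM in WT embryos and 46.2% to 62.4% in CDKO embryos, with no overlap, and the type IV share went from 32.9% to 34% down to 20.1% to 30.4%. A share of a fixed total falls where another class is higher, so the lower type IV share is not a lower type IV level.

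**Figure D3:**
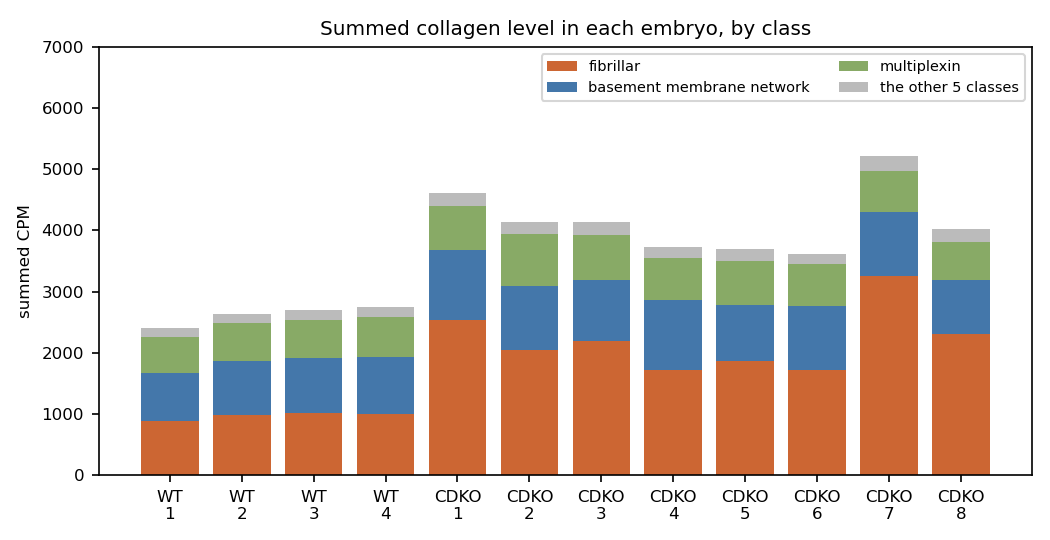
Summed CPM of the 43 collagen genes in each embryo (bars from 0), divided into fibrillar, basement membrane network (type IV), multiplexin and the other 5 classes. The fibrillar part makes up most of the difference between WT and CDKO embryos, and the type IV and multiplexin parts are of similar height in both.

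Levels of different genes were compared per kb of the longest GENCODE M21 transcript. In WT embryos the order of mean level was Col18a1 (110.6 CPM per kb), Col4a1 (75.3), Col2a1 (50.3), Col4a2 (41.6), Col1a2 (31.2), Col1a1 (26) and Col3a1 (23.5). In CDKO embryos Col18a1 (126) and Col4a1 (87.6) still led, followed by Col1a2 (83.1), Col1a1 (80.5) and Col3a1 (80.2), and then by Col2a1 (56.6) and Col4a2 (52.2). In CDKO embryos, the values of Col4a1, Col1a2, Col1a1 and Col3a1 lay closer to each other than the spread of the type I and III chains between embryos. Col6a3, with a long transcript, stood at 0.158 CPM per kb in WT and 0.913 in CDKO embryos, below Col6a1 (1.72 and 3.56) and Col6a2 (1.88 and 3.36) in both groups.

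Collagen genes also varied more between CDKO embryos than between WT embryos. The median coefficient of variation of the 34 genes was 11.2% in WT and 19.9% in CDKO embryos, and it was wider in CDKO in 31 of them. Over all genes tested the medians were 7.08% and 10.9%, with a wider spread in CDKO in 77.2%. The spread was 36.3% for Col1a1 and 43.2% for Col3a1 among CDKO embryos, against 11% for Col5a1. Of the 15 genes that rose, CDKO embryo 7 was the highest of its group in 9. CDKO embryo 6, the library with the highest Prl8a2 level, was the lowest in 6. CDKO embryos 4 and 8 were lowest in 4 each.

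Chains that assemble in the same trimer or share a start region were compared as ratios within each library, which do not depend on library scaling. Of the 12 pairs listed, 11 had both chains past the filter, and each was tested with an exact two-sided permutation test over the 495 splits of the embryos (smallest p 0.00202), adjusted over the 11 pairs. The type I chains kept a ratio near even: the log2 ratio of Col1a1 to Col1a2 was -0.12 ± 0.06 (SD, n = 4) in WT and 0.05 ± 0.26 (SD, n = 8) in CDKO, and the difference of 0.17 did not pass (exact permutation, adjusted p = 0.296). Col5a1 to Col5a2 (difference -0.04, adjusted p = 0.721 by the exact permutation test) and Col6a1 to Col6a2 (0.19, adjusted p = 0.203) did not pass either.

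Ratios differed in 5 pairs. Col6a3 gained on Col6a1, with a log2 ratio of -2.67 to -1.9 in WT and -1.13 to -0.23 in CDKO embryos (difference 1.43, exact permutation adjusted p = 0.0111). Col9a2 gained on Col9a1, whose log2 ratio to Col9a2 was 2.6 to 2.87 in WT and 1.65 to 2.31 in CDKO (difference -0.9, exact permutation adjusted p = 0.0111). Col11a1 gained on Col2a1, which went from 3.19 to 3.38 down to 2.15 to 2.98 (-0.67, exact permutation adjusted p = 0.0167), and on Col11a2 (0.77, exact permutation adjusted p = 0.0311). The last of these was lost without WT embryo 1 (adjusted p = 0.0533), 2 (0.08) or 4 (0.08) or CDKO embryo 7 (0.06), by the same exact permutation test. Col4a1 to Col4a2 differed least, by -0.11, from a narrow 0.87 to 0.91 in WT to 0.71 to 0.87 in CDKO (exact permutation adjusted p = 0.0167).

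**Figure D4:**
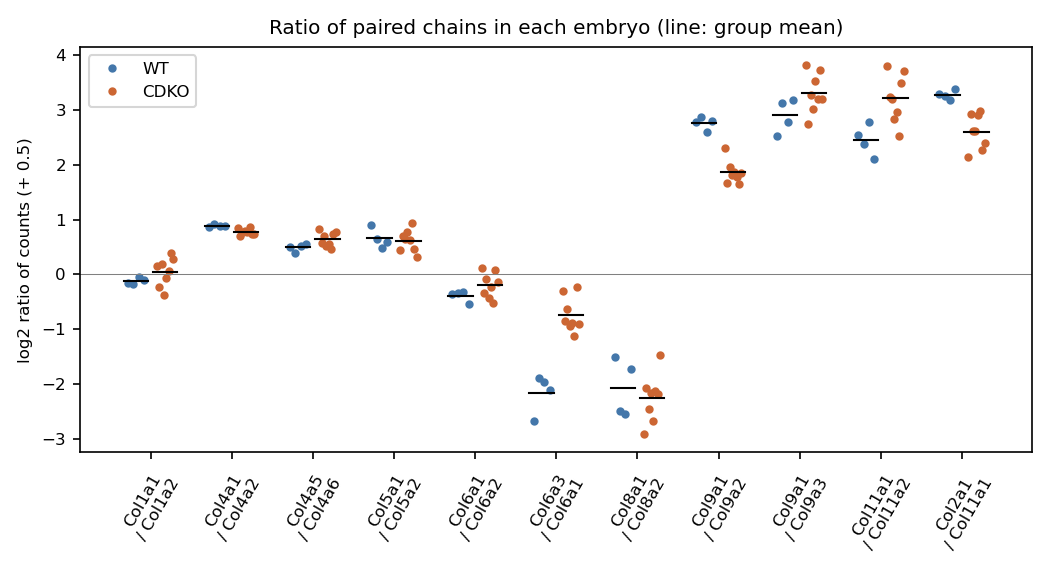
Log2 ratio of the counts of paired chains (vertical axis, 0.5 added to each count) in every WT (blue) and CDKO (orange) embryo, with a line at each group mean. The groups do not overlap for Col6a3 to Col6a1, Col9a1 to Col9a2 and Col2a1 to Col11a1, and they overlap widely for the type I and type V chains.

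Promoter sequences were taken from RefSeq (GRCm38.p6), which held 35 of the 43 genes. The 250 bases before the start are shown 5′ to 3′ for 4 genes that rose at least 2-fold, from types I, III, V and VI, and for Col7a1, the gene with the largest fall. Capitals mark CTGTCA, the core of the site that Tgif proteins bind in vitro, and CAGAC, a short SMAD-binding element, on either strand; where both overlap the run of capitals joins them.
Col1a2, chr6:4505368-4505617, plus strand: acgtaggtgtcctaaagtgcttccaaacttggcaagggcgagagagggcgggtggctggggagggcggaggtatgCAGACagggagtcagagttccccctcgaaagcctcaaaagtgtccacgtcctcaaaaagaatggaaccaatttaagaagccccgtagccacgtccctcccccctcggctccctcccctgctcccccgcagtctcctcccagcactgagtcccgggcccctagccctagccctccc
Col3a1, chr1:45311288-45311537, plus strand: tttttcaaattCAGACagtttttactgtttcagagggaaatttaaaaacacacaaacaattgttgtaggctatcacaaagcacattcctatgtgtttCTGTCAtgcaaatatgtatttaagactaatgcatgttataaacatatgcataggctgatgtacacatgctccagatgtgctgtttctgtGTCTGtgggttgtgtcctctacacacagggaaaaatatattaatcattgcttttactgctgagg
Col5a1, chr2:27886175-27886424, plus strand: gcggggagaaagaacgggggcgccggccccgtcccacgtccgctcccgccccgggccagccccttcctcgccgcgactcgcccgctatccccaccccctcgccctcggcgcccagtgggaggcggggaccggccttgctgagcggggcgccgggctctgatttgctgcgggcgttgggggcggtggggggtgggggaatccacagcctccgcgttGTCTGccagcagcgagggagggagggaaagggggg
Col6a3, chr1:90843972-90844221, minus strand: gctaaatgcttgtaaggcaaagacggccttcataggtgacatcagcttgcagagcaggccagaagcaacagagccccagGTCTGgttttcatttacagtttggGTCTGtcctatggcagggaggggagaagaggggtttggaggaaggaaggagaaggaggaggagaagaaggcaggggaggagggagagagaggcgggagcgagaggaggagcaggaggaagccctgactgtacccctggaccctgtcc
Col7a1, chr9:108953336-108953585, plus strand: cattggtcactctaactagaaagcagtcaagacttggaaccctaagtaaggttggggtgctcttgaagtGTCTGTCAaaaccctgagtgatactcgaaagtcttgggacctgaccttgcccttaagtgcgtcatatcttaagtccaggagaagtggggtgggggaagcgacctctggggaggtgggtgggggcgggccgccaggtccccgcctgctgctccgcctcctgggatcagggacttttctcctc

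CTGTCA was present in Col3a1 and Col7a1 of these 5 and in 5 of the 35 collagen genes (14.3%), against 18% of 27025 genes with a window of the same length. It was in 1 of the 13 collagen genes that rose and had a window and in 2 of the 14 other tested ones. CAGAC was present in all 5 shown and in 17 of the 35 (48.6%), against 45.8% of all genes. The same split gave 10 of 13 and 4 of 14. GGGCGG, the GC box, was in 21 of 35 collagen genes (60%) against 35.4% of all genes, and in 8 of the 13 that rose and 10 of the 14 others. CCAAT was in 13 of 35 (37.1%, against 37.5%), with 6 of 13 and 5 of 14, and TATAAA in 5 of 35 (14.3%, against 14.3%), with 1 of 13 and 2 of 14. A match of so few letters is a description of the window and not a bound site.

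Genes that make, export, process and bind collagen were taken from 8 lists by role. Among 93 such genes past the filter there were 45 that rose and 10 that fell, with a median log2 fold change of 0.26. For comparison, 26.6% of all genes tested rose and 24.9% fell. With trends on GC content and length removed 44 rose and 18 fell.

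Counts are given by role, and the lists were not tested against each other. Of 19 genes that modify and fold the chains 8 rose and 1 fell (median 0.14); the count that fell was 3 without WT embryo 2, 2 in limma-voom with sample quality weights and 4 with trends on GC content and length removed. The most abundant was Serpinh1, the collagen chaperone Hsp47, at 1027.6 ± 53.6 CPM in WT and 1452 ± 171.5 CPM in CDKO embryos (0.50, SE 0.08, adjusted p = 0.000155). The prolyl hydroxylase genes P4hb (0.25, SE 0.06) and P4ha1 (0.51, SE 0.11) rose, and the galactosyltransferase gene Glt25d1 stayed at 146.5 ± 5.28 and 146 ± 6.2 CPM. Of 10 tested genes of export from the endoplasmic reticulum 5 rose and 2 fell, or 1 without WT embryo 2 (median 0.07). Sec31a (0.11, SE 0.04) and Sec23a (0.26, SE 0.06), coat proteins of transport vesicles, rose slightly, Tfg fell by 0.13 on the log2 scale and Sec13 did not pass (0.03, SE 0.05). Sec24d, the cargo-binding coat subunit, rose from 30.9 ± 2.39 to 70.4 ± 6.29 CPM, and Creb3l1, a transcription factor of secretory cells that drives Col1a1 in bone, from 15.4 ± 4.37 to 45 ± 10.8 CPM. Klhl12, which helps to build large vesicles, fell by 0.43 on the log2 scale, as did P4ha3 of the first list by 0.7. These 4 were named after their values were seen. Mia3, the receptor for large cargo, was listed at 0 in every library. The counts do not tell whether the gene was silent or its row could not collect reads.

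Cleavage and crosslinking genes rose in 9 of 14 and fell in 1, or 2 with those trends removed (median 0.63). Adamts3, which removes the N-propeptide of fibrillar procollagen and also activates Vegfc, rose from 15.6 ± 1.57 to 46.7 ± 3.16 CPM (1.59, SE 0.08, adjusted p = 5.89e-10). The crosslinking oxidase gene Loxl2 (0.47, SE 0.11) and the C-proteinase gene Bmp1 (0.34, SE 0.05) rose, and Pxdn, which crosslinks type IV collagen, did not pass (-0.08, SE 0.07). Named after their values were seen, Adamts2 (1.42, SE 0.25), Loxl1 (1.32, SE 0.19) and Loxl3 (1.23, SE 0.09) also rose, each with groups that did not overlap. Pcolce and Pcolce2, enhancers of C-propeptide cleavage also named after their values were seen, went opposite ways. Pcolce rose from 20.2 ± 2.42 to 36 ± 6.73 CPM (0.83, SE 0.14). The less abundant Pcolce2 fell by 0.52 on the log2 scale, from 8.09 ± 0.767 to 5.63 ± 0.787 CPM. Of 8 receptor and uptake genes tested 5 rose and none fell (median 0.29). Itgb1 (0.23, SE 0.05) and the endocytic receptor gene Mrc2 (0.34, SE 0.07) rose, and the collagen receptor kinase genes Ddr1 (0.07, SE 0.07) and Ddr2 (0.03, SE 0.28) did not pass. The other 3 that rose were integrin alpha chains, Itga1 (0.68, SE 0.14), Itga10 (0.65, SE 0.17) and Itga11 (1.70, SE 0.30), named after their values were seen.

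Of 10 genes of proteases and their inhibitors 2 rose and 2 fell (median 0.02), with 4 lower in limma-voom with sample quality weights and 5 lower with trends on GC content and length removed. Mmp2, a gelatinase, stood at 130 ± 4.72 and 129.9 ± 13.3 CPM and Mmp15 did not pass (0.08, SE 0.06). Mmp14, a membrane collagenase, rose (0.34, SE 0.09), as did its inhibitor gene Reck (1.02, SE 0.07). The 2 that fell, named after their values were seen, were the inhibitor gene Timp1 (-0.87, SE 0.21) and the membrane protease gene Mmp16 (-0.66, SE 0.16). Of 9 fibril-binding genes tested 6 rose and none fell (median 0.69). Lum, the small leucine-rich proteoglycan lumican that spaces fibrils, stood at 17, 19.3, 23.6 and 22.7 CPM in WT and at 57.1 to 136 CPM in CDKO embryos (2.07, SE 0.27, adjusted p = 7.18e-05). Fn1, fibronectin, rose by less (0.32, SE 0.12), and Sparc (0.90, SE 0.09) and Tgfbi (0.69, SE 0.14) lay between. Dcn, decorin, named after its value was seen, rose from 1.95 ± 0.126 to 8.27 ± 2.26 CPM. Bgn (-0.09, SE 0.12), which was more abundant than Dcn, Matn3 (-0.14, SE 0.13) and Podn (0.38, SE 0.19) did not pass. They were also named after their values were seen.

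Of 12 genes of basement membrane partners 8 rose and 1 fell (median 0.34). Hspg2, perlecan (0.35, SE 0.10), and the laminin gene Lamb1 (0.29, SE 0.07) rose, while Agrn (-0.02, SE 0.10) and Lamc1 (0.18, SE 0.08) did not pass. Smoc1, a calcium-binding matrix protein, was the one that fell (-0.39, SE 0.13), a call lost without WT embryo 2 or WT embryo 4, and its relative Smoc2 rose (1.70, SE 0.23), both named after their values were seen. Of 11 transcription factors known to act on collagen genes 2 rose and 3 fell (median -0.13). Sp1 (-0.28, SE 0.06) and Sp3 (-0.21, SE 0.07), which bind GC boxes, fell, and Atf4 (0.11, SE 0.07) and Sox9, the activator of Col2a1 (-0.14, SE 0.11), did not pass. Named after their values were seen, Nfic (1.16, SE 0.11) and Sox5 (0.62, SE 0.12) rose, and Sp7, the osteoblast factor osterix, fell from 2.67 ± 0.783 to 0.854 ± 0.219 CPM.

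**Figure D5:**
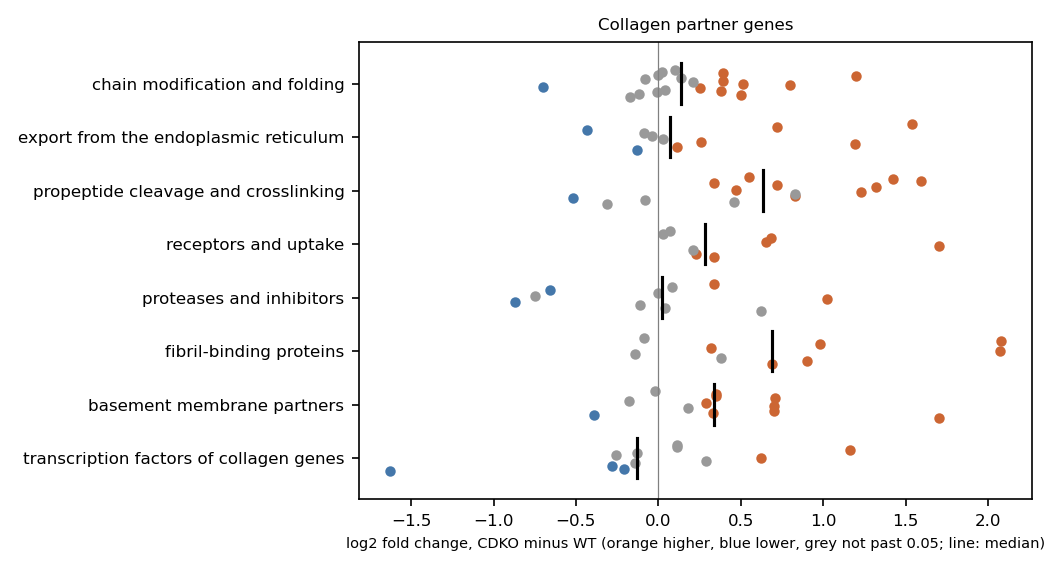
Log2 fold change (CDKO minus WT, horizontal axis) of each tested gene of the 8 partner lists, with orange for genes called higher, blue lower and grey not past an adjusted p of 0.05, and a line at each list's median. The medians lie between -0.13 for transcription factors and 0.69 for fibril-binding proteins.

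Markers of cells that make fibrillar collagen, and of tissues that could accompany the embryo, were read beside these values. Of 8 markers of cranial and lateral mesenchyme 5 rose (62.5%, against 26.6% of all genes tested) and none fell, with a summed level of 407 to 532 CPM in WT and 576 to 661 CPM in CDKO embryos. Twist1 (0.33, SE 0.07) and Prrx2 (0.58, SE 0.10) rose, and Pdgfra, the most abundant, did not pass (0.12, SE 0.10). Hand2 (0.68, SE 0.10), Snai2 (0.91, SE 0.11) and Tbx5 (1, SE 0.16), named after their values were seen, were the others that rose. Prrx1 (0.42, SE 0.23) and Foxc1 (-0.24, SE 0.13), also named after their values were seen, did not pass. Of 9 endothelial markers 6 rose (66.7%) and none fell, at 406 to 480.4 CPM in WT and 518 to 731 CPM in CDKO embryos, with Tek at 0.90 (SE 0.16), Cdh5 at 0.44 (SE 0.08) and Kdr at 0.15 (SE 0.08, not passed). No marker of these lists was at 0 in every library. Of 9 trophoblast and decidua markers only 2 were tested and neither passed. Cts8 was at 0 in all libraries and Prl2c2, Psg17 and Tpbpa in all WT libraries. Their summed level was 4.71 to 11.7 CPM in WT and 4.07 to 79.6 CPM in CDKO embryos, the highest in CDKO embryo 6. That embryo lay at or near the low end of the CDKO group in fibrillar collagen, with 1718 CPM against 1724.5 to 3259 CPM in the others. Yolk sac endoderm markers, 8 tested and none passed, summed to 581 to 2102.5 CPM in WT and 695 to 3269 CPM in CDKO embryos. The part of the mesenchymal and endothelial markers in the collagen values was not tested.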

How the data were processed

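RNA was poly-A selected and read as 50-base pairs, per the labels' protocols. The deposited values are whole-number counts for each gene symbol, 1 column for each of 12 embryos. The submitters' processing notes name the build mm9 and the tools FastQC, STAR, featureCounts and DESeq2, without versions. The sources used here do not give the strand setting, annotation or handling of multi-mapped reads. Columns were matched to embryos by title and embryos to groups by genotype label; replicate numbers follow sample order. Separate litters are not stated, so p-values measure the spread between these embryos. No library pair within a group was within sampling noise (lowest chi-square per degree of freedom 3.89).

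Counts were tested over the whole table with edgeR 4.0.16 (R 4.3.3): filterByExpr by group, TMM factors and a robust quasi-likelihood F test of genotype (Benjamini-Hochberg over 14412 genes, threshold 0.05). Each SE was taken as the log2 fold change over the root of its F value. CPM values use the TMM-scaled library. Chain ratios used counts plus 0.5. The fit and the permutation test were tested on simulated data.

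Members and lists were chosen with earlier results of these data known. Every collagen gene is accounted for; from each partner list the 4 genes with the highest mean CPM are named, from each marker list up to 3, and others are said to be named after their values were seen. Alternatives were scaling by upper quartile or RLE, limma-voom (limma 3.58.1) with and without quality weights, DESeq2 1.42.0, other count filters, a threshold of 0.01, each embryo left out, WT embryo 1 and CDKO embryo 2 both left out, and removal of trends on GC content and length (GENCODE M21, 99.1% of tested genes matched). Motifs were chosen after the counts were seen. Near-identical copies were searched with BLAST 2.17.0 (95% identity over 200 bases).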

Additional observations from a re-analysis of the deposited data

Results flagged for a closer look

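Of 108 groups of embryos examined over the 34 tested genes, the 9 class sums and the 11 ratios, 4 held an embryo far from the rest by Dixon's 95% limit, which chance gives in about 1 in 20 groups; these groups share embryos and are not independent. Col27a1 stood at 20 CPM in WT embryo 1 against 23.3 to 23.6 CPM in the other WT embryos. The summed type VI class stood at 16 CPM in WT embryo 1 against 18.9 to 19.1 CPM in the others. Col6a2 stood at 21.5 CPM in CDKO embryo 2 against 14.2 to 17.3 CPM in the other CDKO embryos. Col8a1 stood at 1.32 CPM in CDKO embryo 8 against 0.308 to 0.699 CPM in the others.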

How the results depend on the processing

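Col1a1, Col1a2, Col3a1, Col5a1, Col5a2, Col11a1, Col6a1, Col6a2, Col6a3, Col9a1, Col9a2, Col4a2 and Col7a1 kept their direction and call under all 21 alternatives of scaling, tool, filter, left-out embryos and GC and length trends, with Col1a1 at 1.45 to 1.72, Col3a1 at 1.55 to 1.87, Col5a1 at 1.07 to 1.21 and Col6a3 at 2.28 to 2.62 (log2). Collagen genes called higher numbered 12 to 17 with 1 embryo left out and 12 with the GC and length trends removed. Those called lower numbered 1 to 3 with 1 embryo left out and 1 at a threshold of 0.01. Partner genes called lower went from 10 to 18 with those trends removed. With WT embryo 1 and CDKO embryo 2 both left out, the Col11a1 to Col11a2 difference was 0.80 (exact permutation adjusted p = 0.0733). Over the embryos left out in turn it ranged from 0.65 to 0.88. Col4a5 to Col4a6 ranged from 0.12 to 0.18 and passed without CDKO embryo 6 (exact permutation adjusted p = 0.0389). Col5a1 to Col5a2, not called, turned to 0.02 with both left out and ranged from -0.10 to 0.04 with 1 left out. Genes that were not called changed sign in 17 of 711 gene values: Col2a1 (-0.01), Col11a2 (-0.10) and Col8a2 (-0.06) with trends removed, Col15a1 with quality weights (-0.01), Col8a1 with both embryos left out (0.24), and, with 1 embryo left out, Col11a2 (-0.05; range to 0.14), Col15a1 (-0.04 to 0.31), Col4a6 (-0.07 to 0.00), Col8a1 (-0.39 to 0.22) and Col8a2 (-0.09 to 0.32). The cause of these changes was not tested. No paired analysis was possible because the replicate numbers only name embryos in sample order. Genes under the count filter had at most 38 counts in a group and were not tested.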
